A study of Mus musculus with 4 samples.

Results

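Aortic cells of mice lacking ApoE and fed a western diet were set against aortic cells of WT mice fed a normal diet, within 4 cell classes. Mouse aortas were perfused, digested with collagenases and liberase, and loaded on a droplet 3' RNA kit, which counts unique molecular identifiers (UMIs), that is, captured transcripts, per gene and cell barcode. The group labelled WT/ApoE-/- western diet and the group labelled WT normal diet are 1 library each. They differ in the Apoe genotype and in the diet together, and neither carries the LysM-DKO genotype of the other pair of libraries in the series, LysM-DKO on normal diet and LysM-DKO/ApoE-/- on western diet. The labels do not give age, time on diet, number of animals pooled or the genes deleted. The series title names epsins, a family of endocytic adaptors, and ABCG1, a transporter that exports cholesterol. The LysM promoter is that of Lyz2, active in macrophages and neutrophils.

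Cells were kept at 2000 or more UMIs and at most 10% mitochondrial UMIs. A macrophage had at least 5 UMIs of C1qa, C1qb and C1qc together, and an endothelial cell at least 2 UMIs of Pecam1 and Cdh5. A fibroblast had at least 3 UMIs of Pdgfra and Serpinf1, and a smooth muscle cell at least 5 UMIs of Myh11 and Cnn1. These rules found 10407 cells among the 13443 kept in both libraries and the 27278 kept in the series, 4404 on normal diet and 6003 on western diet. A cell could meet more than 1 rule, and the cells that met a single rule are called one-class cells below.

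ApoE is the ligand by which liver and other cells clear remnant lipoproteins, so mice without it carry high plasma cholesterol and form plaques in the aorta, faster on a western diet. In such plaques macrophages take up lipoprotein, store and export its cholesterol, and take on a lipid-associated programme marked by Trem2, Gpnmb and Spp1, while resident macrophages of the outer wall carry Lyve1, Cd163 and Folr2. Smooth muscle cells can lose contractile genes and gain matrix, adhesion and cartilage genes, a state called modulated. Fibroblasts populate the adventitia, the outer coat, and endothelium lines the lumen and the small vessels of the wall.

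Each diet group is a single library, so differences are described and none is tested. Values are UMIs summed over a class and scaled to counts per 1000000 UMIs of that class (CPM). Ratios are log2 of western over normal diet, with 0.5 UMIs added. Brackets hold 95% intervals, exact for shares and for gene levels and ratios, which cover counting error only and not the spread between animals. A list of genes is given by how many of its tested members, those of mean CPM of at least 50, lay 2-fold or more higher or lower, beside the same share of all genes tested. Levels in all other kept cells of the same library are given beside a class level, because droplets also catch RNA freed from other cells. In summed values fewer cells that express a gene and less RNA of it per cell cannot be told apart.

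Several measures moved with the diet. Kept cells were 45.5% of 13831 barcodes on normal diet, while 73.8% of the 29724 barcodes on western diet had under 2000 UMIs. The median kept cell held 5212 and 5327 UMIs. Macrophages had 1760 CPM of Xist on normal diet and 0.296 on western diet, against 0 and 70.7 CPM of the Y-linked gene Ddx3y, so the sex of the animals differed too. The headers name Cell Ranger 6.0.1 for the normal and 6.1.2 for the western diet libraries. Diet, Apoe genotype, sex and software version cannot be told apart here. The libraries shared 18 kept barcodes. Doublet scores marked 317 and 409 kept cells when the highest scores were taken up to the expected share, because the scoring tool's own threshold marked 105 and 0. Hemoglobin and B cell transcripts were spread through the normal diet library: in smooth muscle cells 5 erythroid markers summed to 3971 CPM and 4 B cell markers to 430 CPM, against 232 and 26.1 on western diet. Their part in the results was not tested.

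Apoe itself, the deleted gene (chr7:19696109-19699188, minus strand, GRCm38), was near 0 in every class of the library labelled ApoE-/-. Macrophages held 3128 Apoe UMIs or 6781 CPM on normal diet and 30 UMIs or 8.87 CPM on western diet, a log2 ratio of -9.55 (-10.15 to -9.06). Fibroblasts went from 3228 to 7.29 CPM and endothelial cells from 639 to 6.38 CPM. Macrophages of the LysM-DKO pair had 5343 CPM on normal diet and 8.83 CPM on western diet.

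The makeup of the kept cells differed between the libraries in all 4 classes. Macrophages were 81 of 6294 kept cells on normal diet, 1.29% (1.02 to 1.60), and 564 of 7149 on western diet, 7.89% (7.28 to 8.54). Their share was 6.60 points higher (5.93 to 7.30). Smooth muscle cells were also a larger share, 71.7% against 57.7%, a difference of 14.0 points (12.4 to 15.6), which was 3.72 points among cells of at least 4000 UMIs. Endothelial cells were a smaller share, 5.44% against 11.2%, a difference of -5.79 points (-6.74 to -4.86), or -2.18 points in one-class cells. Fibroblasts were 8.28% against 9.76%, a difference of -1.47 points (-2.45 to -0.505), and this direction depended on the rule. When 2 or more UMIs of Pdgfra alone defined the class, the share was higher on western diet, 6.84% against 5.01%.

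**Figure D1:**
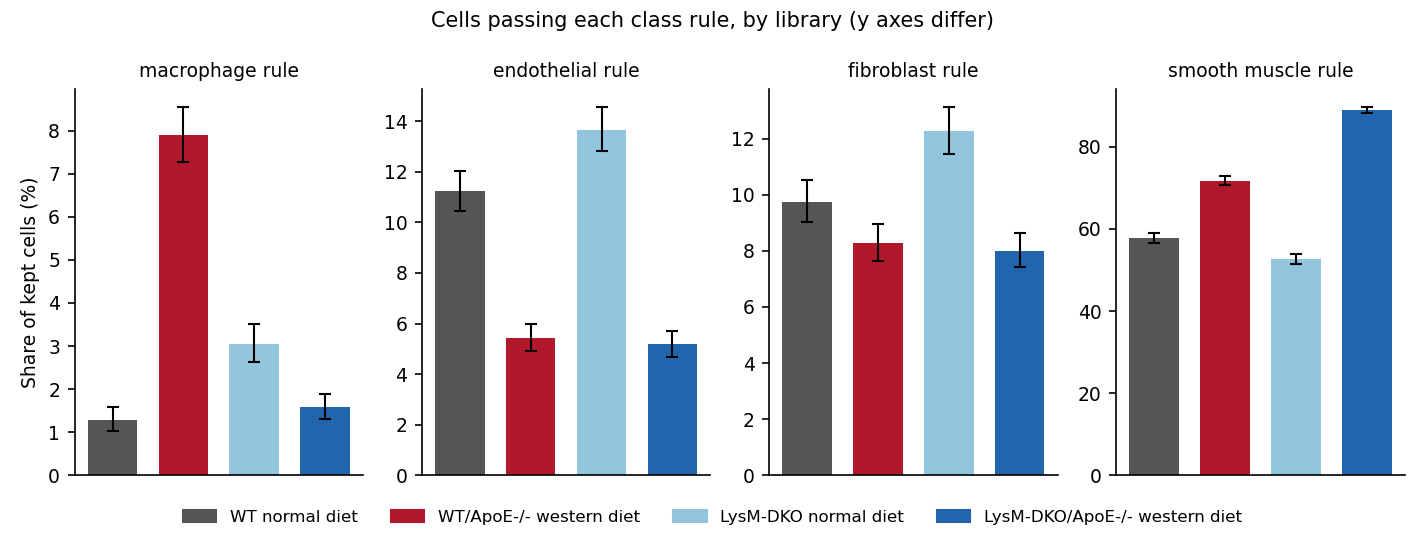
Share of kept cells (%, y axes differ) passing each class rule in the 4 libraries, 1 library per bar, with exact 95% binomial intervals that cover counting error only. Macrophages were 1.29% and 7.89% of cells in the WT pair and 3.06% and 1.58% in the LysM-DKO pair.

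In the LysM-DKO pair, which shares no library with the WT pair, macrophages went the other way, from 3.06% to 1.58%, a difference of -1.48 points (-2.01 to -0.977). Under these rules the other 3 classes differed in the same direction in both pairs. Endothelial cells went from 13.7% to 5.18%, fibroblasts from 12.3% to 8.0% and smooth muscle cells from 52.7% to 88.9%. With Pdgfra alone the fibroblast share of the LysM-DKO pair was lower on western diet, 4.90% against 6.57%, unlike that of the WT pair. The difference between the pairs was not tested.

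Each rule selected cells with more of its class's other markers. All 8 independent markers of each class were higher in it than in the other kept cells of both libraries, by median folds of 90.3 and 67.9 for macrophages, 51.6 and 33.5 for endothelial cells, 38.4 and 4.24 for fibroblasts, and 6.83 and 11.7 for smooth muscle cells. The narrow margin of fibroblasts on western diet came with fibroblast markers in other cells. The endothelial rule was loose: 500 of 707 and 310 of 389 of its cells met another rule, mostly smooth muscle. Only 28.0% and 10.3% held 5 or more UMIs of 8 other endothelial markers. The cells at the edge of the rules were many there, with 316 and 232 cells at exactly 2 UMIs and 939 and 856 cells with 1 UMI, just outside. For macrophages they were few, with 1 and 24 cells at 5 UMIs and 4 and 58 cells at 4 UMIs.

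In macrophages the lipid-associated genes were far higher on western diet and the resident and inflammatory genes lower. Among 3066 genes tested, 13.8% were 2-fold or more higher and 11.2% lower, and the median log2 ratio was 0.08. Of 17 tested lipid-associated genes 14 were 2-fold or more higher and 1 lower, with a median of 3.28. Of 20 lysosomal genes 12 were higher and none lower, with a median of 1.22. All of these 14 and 12 genes were also at least as high in macrophages as in the other cells of the western diet library. The lists share some genes, such as Ctsd and Atp6v0d2.

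Secreted lipid-associated genes were among those with high ratios. Spp1, which encodes the matrix protein osteopontin (chr5:104435118-104441050, plus strand, GRCm38), had 20 UMIs or 43.4 CPM (26.5 to 67.0) on normal diet and 36929 UMIs or 10922 CPM (10811 to 11034) on western diet. The log2 ratio was 7.94 (7.35 to 8.69). Spp1 was not a macrophage gene alone in that library, since the other cells held 62.4 and 4482 CPM. Mmp12, a macrophage elastase, went from 5 UMIs or 10.8 CPM to 2341 UMIs or 692 CPM, a log2 ratio of 5.86 (4.77 to 7.62), against 0.733 and 14.4 CPM in other cells. The LysM-DKO pair gave log2 ratios of 4.13 for Spp1 and 2.39 for Mmp12.

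Surface and membrane genes of the programme followed the same direction. Gpnmb, a transmembrane glycoprotein of lipid-loaded cells, had 3 UMIs or 6.50 CPM and 3402 UMIs or 1006 CPM, a log2 ratio of 7.05 (5.72 to 9.55), with 11.02 and 25.4 CPM in other cells. Trem2, the lipid-sensing receptor, had 106 and 877 CPM, a log2 ratio of 3.03 (2.64 to 3.48), with 0.497 and 11.5 CPM in other cells. Both genes were thus lower in the other cells than in macrophages on western diet. Itgax, which encodes the integrin CD11c, had 10.8 and 180 CPM (3.92, 2.82 to 5.68). The tetraspanin Cd9 had 245 and 1229 CPM, but other cells held 651 and 1081 CPM. For the LysM-DKO pair the log2 ratios of Gpnmb and Trem2 were 5.48 and 2.88.

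Intracellular lipid genes divided. Fabp5, a fatty acid chaperone, had 37 UMIs or 80.2 CPM and 7197 UMIs or 2128 CPM, a log2 ratio of 4.71 (4.27 to 5.24), while other cells held 49.1 and 48.1 CPM. Lpl, which encodes lipoprotein lipase, had 43.4 and 432 CPM (3.28, 2.69 to 4.03). Plin2, the coat protein of lipid droplets, had 518 and 553 CPM, a log2 ratio of 0.09 whose interval, -0.10 to 0.29, spans 0. So the lipid droplet gene was level while the lipid handling genes around it were high. Cd36, a scavenger receptor for oxidised lipoprotein, was the 1 member lower, with 555 and 102 CPM and a log2 ratio of -2.44 (-2.68 to -2.20). Trem2, Itgax, Lpl and Plin2 are named after their values were seen.

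Export and uptake genes are the subject of the series title. Of 10 tested efflux and LXR genes 2 were 2-fold or more higher and 2 lower, with a median of 0.55. In one-class macrophages 5 of 10 were higher and 2 lower, with a median of 0.92. Of all 2915 genes tested there, 444 were higher and 351 lower. The transporter gene Abcg1 had 11 UMIs or 23.8 CPM and 1180 UMIs or 349 CPM, a log2 ratio of 3.81 (3.03 to 4.88). Other cells held 10.99 and 19.2 CPM of it. Abca1, the transporter that loads ApoA-I, had 338 and 690 CPM, a log2 ratio of 1.02 (0.80 to 1.27). Both transporter genes were also higher in macrophages than in the other cells on western diet, where Abca1 stood at 97.1 CPM. The 2 lower members were Ch25h, which makes 25-hydroxycholesterol, at 373 and 52.9 CPM (-2.82, -3.13 to -2.51), and Mylip, at 544 and 199 CPM. LysM-DKO macrophages had for Abcg1 43.9 and 268 CPM, a log2 ratio of 2.60. Of 6 uptake receptors 1 was higher, Lrp1 at 178 and 470 CPM, and 2 lower, with a median of -0.12. Only 2 cholesterol synthesis genes reached the level for testing, and Insig1 was the lower of them at 236 and 41.7 CPM.

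Lysosomal proteases were high together. Ctsd, an aspartic protease, had 388 and 2998 CPM (2.95, 2.74 to 3.17), and Ctsl had 349 and 2038 CPM (2.54, 2.32 to 2.78). Ctsb, the most abundant of the list, had 2302 and 5546 CPM (1.27, 1.18 to 1.36). Atp6v0d2, a subunit of the proton pump, and Ctsk, a collagen-cleaving protease, were at 0 UMIs on normal diet. With 515 and 418 UMIs on western diet, and against a floor of 3 UMIs, their log2 ratios were at least 4.55 and 4.25. Atp6v0d2 in the LysM-DKO pair had 1.87 and 112 CPM, while Ctsk had 2.81 and 1.47 CPM. Ctsk also stood at 67.8 CPM in the other cells of the WT western library.

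**Figure D2:**
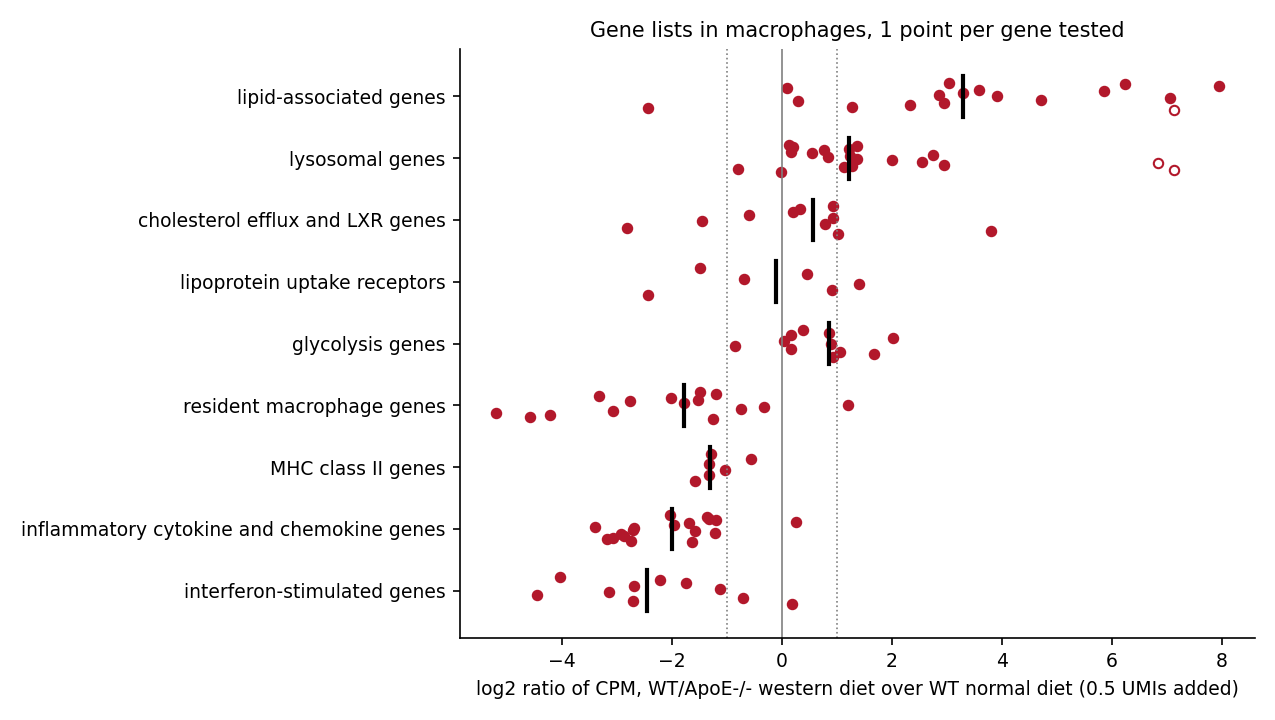
Log2 ratio of western over normal diet in macrophages of the WT pair for 9 gene lists, 1 point per tested gene, bars at the medians, dotted lines at 2-fold, open points for genes with 0 UMIs on normal diet. The medians were 3.28 for lipid-associated, 1.22 for lysosomal, -1.78 for resident, -2.01 for inflammatory and -2.46 for interferon-stimulated genes.

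Of 15 tested resident macrophage genes 12 were 2-fold or more lower and 1 higher, with a median of -1.78. The hemoglobin scavenger receptor Cd163 had 206 UMIs or 447 CPM and 81 UMIs or 24.0 CPM, a log2 ratio of -4.21 (-4.61 to -3.84), with 0.497 and 0.196 CPM in other cells. The lectin gene Cd209f had 189 and 5.03 CPM (-5.20, -6.07 to -4.47), and the chemokine gene Pf4 1420 and 142 CPM (-3.33, -3.50 to -3.15). Selenop, a selenium carrier, differed less, with 1340 and 584 CPM. The exception was the growth factor gene Igf1 at 154 and 356 CPM (1.20, 0.86 to 1.58). Ccl24, also of the list, had a log2 ratio of -4.58. Outside the list, Retnla and Vsig4, genes of alternative or resident macrophages, had log2 ratios of -5.46 and -6.06. The LysM-DKO pair gave a list median of -0.43 and a log2 ratio of -0.43 for Cd163, 0.17 for Vsig4 and 0.48 for Ccl24. These ratios compare 461319 UMIs of 81 cells with 3381264 UMIs of 564 cells.

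Inflammatory genes were lower almost without exception. Of 18 tested cytokine and chemokine genes 17 were 2-fold or more lower and none higher, with a median of -2.01, and all 17 were at least as high in macrophages as in the other cells of the normal diet library. Cxcl2, a neutrophil attractant, had 16524 UMIs or 35819 CPM and 18688 UMIs or 5527 CPM, a log2 ratio of -2.70 (-2.73 to -2.67). Ccl4 had 22121 and 2633 CPM (-3.07, -3.11 to -3.03), and Cxcl3 169 and 16.0 CPM (-3.40, -3.93 to -2.88). Il1b, which encodes interleukin 1 beta, was the exception at 225 and 268 CPM (0.24, -0.04 to 0.56). The list median was -1.10 in the LysM-DKO pair.

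Interferon-stimulated genes showed the same direction. Of 10 tested 8 were 2-fold or more lower and none higher, with a median of -2.46. Ifit1 had 334 and 15.1 CPM (-4.46, -4.95 to -4.00), Rsad2 1077 and 65.7 CPM (-4.04, -4.27 to -3.81) and Cxcl10, the most abundant, 2651 and 406 CPM (-2.71, -2.82 to -2.60). Bst2 was level at 102 and 117 CPM. The LysM-DKO pair had a list median of -1.44, with Ifit1 at 231 and 17.6 CPM. Of 16 immediate early genes, a class that tissue digestion also induces, 4 were lower and none higher, with a median of -0.72. Atf3 was lowest, at 1758 and 453 CPM. Whether digestion had a part in the inflammatory values was not tested.

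The CXC chemokine genes among them lie on chromosome 5, with Cxcl1, Cxcl2 and Cxcl3 close together and Cxcl10 farther away, and their promoters show a shared feature. Within the 250 bases before the gene start, 6 of the 14 list members with a promoter in the RefSeq table (GRCm38.p6) held a match to the NF-kappaB motif on either strand, 42.9%, against 4.46% of the promoters of 27025 genes. The 6 were Cxcl1, Cxcl2, Cxcl3, Cxcl10, Nlrp3 and Il6, and Il6 was too low in macrophages to be tested. The AP-1 motif TGACTCA was in 4 of the 14 and in 5.16% of all. The NF-kappaB motif was not particular to this list, since 4 of 14 immediate early promoters held it, 28.6%. It was in 1 of 13 cholesterol synthesis promoters. None of 8 complement and acute-phase, 11 heat shock chaperone and 11 efflux and LXR promoters held it. The last 170 bases before the start are shown for the 4 chemokine genes, gene strand, because the same 11-base match recurs in 3 of them, and capitals mark the NF-kappaB matches, which overlap there. A match is not a bound site.
Cxcl1 (chr5:90891075-90891244, plus strand): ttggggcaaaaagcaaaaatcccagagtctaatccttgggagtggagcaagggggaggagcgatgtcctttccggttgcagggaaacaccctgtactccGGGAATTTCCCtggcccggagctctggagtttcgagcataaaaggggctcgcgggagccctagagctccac
Cxcl2 (chr5:90903729-90903898, plus strand): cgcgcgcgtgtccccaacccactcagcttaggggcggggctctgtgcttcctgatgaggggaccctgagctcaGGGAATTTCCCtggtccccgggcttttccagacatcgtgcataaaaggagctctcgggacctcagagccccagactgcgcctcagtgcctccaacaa
Cxcl3 (chr5:90785931-90786100, plus strand): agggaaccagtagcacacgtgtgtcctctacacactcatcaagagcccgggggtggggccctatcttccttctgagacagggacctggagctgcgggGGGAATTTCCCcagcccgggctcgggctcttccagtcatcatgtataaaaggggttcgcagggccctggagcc
Cxcl10 (chr5:92348890-92349059, minus strand): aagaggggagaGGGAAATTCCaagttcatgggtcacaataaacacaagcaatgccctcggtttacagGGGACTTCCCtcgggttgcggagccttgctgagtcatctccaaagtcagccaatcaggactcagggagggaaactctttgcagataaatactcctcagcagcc
The match begins 71, 97 and 73 bases before the start of Cxcl1, Cxcl2 and Cxcl3, and the pair in Cxcl10 begins 159 and 103 bases before it. Cxcl1, with 2931 and 977 CPM in macrophages, had the smallest difference of the 4 genes shown, a log2 ratio of -1.58 (-1.68 to -1.49).

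Other groups differed less or depended on which cells were counted. Of 6 MHC class II genes 5 were 2-fold or more lower, with a median of -1.31, and Cd74, the invariant chain gene, had 5571 and 1862 CPM. One-class macrophages had a median of -0.73, and the LysM-DKO pair had a median of 0.03. Of 11 glycolysis genes 3 were higher and none lower, with a median of 0.85, and Pgam1 had 58.5 and 242 CPM. Of 17 oxidative phosphorylation genes 3 were higher, with a median of 0.34. Hmox1, which encodes the heme-degrading enzyme heme oxygenase 1, had 2606 and 302 CPM (-3.11, -3.23 to -2.99), and it was also lower in the other 3 classes. The heat shock gene Hspa1b had 963 and 107 CPM.

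Markers of other cell types also differed between the libraries in macrophages. Summed over 5 modulated wall markers (Lum, Vcam1, Spp1, Tnfrsf11b and Ecrg4), macrophages held 390 CPM on normal diet and 12181 on western diet. Spp1, also a gene of lipid-loaded macrophages, made up 43.4 and 10922 CPM of these sums, so most of the western diet sum was Spp1. Their 8 fibroblast markers summed to 906 and 2963 CPM, and their 8 smooth muscle markers to 4292 and 7819 CPM. The 8 macrophage markers summed to 3711 and 2734 CPM. After each cell was thinned to 2000 UMIs, 66.5% of macrophages on western diet and 7.41% on normal diet held 3 or more UMIs of modulated wall markers. Spp1 counts toward these shares too, so they do not separate RNA of other cells from that of macrophages. The smooth muscle rule was also met by 161 of the 564 macrophages. Without cells meeting 2 rules, smooth muscle genes were lower on western diet. Acta2 had 2382 and 3808 CPM in all macrophages but 1623 and 500 CPM in one-class macrophages. Myh11 and Cnn1, the genes of the smooth muscle rule, had 259 and 147 CPM and 146 and 35.4 CPM in the latter. One-class macrophages gave log2 ratios of 7.69 for Spp1, 7.33 for Gpnmb, 5.82 for Mmp12 and 4.78 for Fabp5. Larger shifts were seen for Retnla from -5.46 to -6.32, for Cd209f from -5.20 to -4.32 and for Cd163 from -4.21 to -3.51. Il7r, the interleukin 7 receptor gene, had a log2 ratio of 4.55 under the rule, from 3 UMIs on normal diet. One-class macrophages held 0 UMIs of it there, so against the floor of 3 UMIs the ratio was at least 4.54.

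Smooth muscle cells kept their contractile genes at level. Among 3226 genes tested, 2.26% were 2-fold or more higher and 4.09% lower, and the median was 0.02. None of 20 tested contractile genes was 2-fold higher or lower, with a median of -0.01 and a range of -0.26 to 0.46. Acta2, smooth muscle actin, had 17158 and 17551 CPM. Tagln, transgelin, was the highest of the list at 8676 and 11896 CPM (0.46, 0.45 to 0.46), and Cnn1, calponin, the lowest at 1435 and 1195 CPM. Myh11 and Cnn1 chose the cells. The list median was 0.39 in the LysM-DKO pair.

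Modulation and cartilage genes were higher in the same cells, yet those past 2-fold were lower there than in the other kept cells. Of 16 tested modulation genes 10 were 2-fold or more higher and 1 lower, with a median of 1.99. Of 6 osteochondrogenic genes 4 were higher, with a median of 3.74, and of 20 matrix genes 5 were higher, with a median of 0.50. None of these 10, 4 and 5 genes reached the level of the other cells of the western diet library. Spp1 had 26.3 and 1770 CPM in smooth muscle cells and 155 and 14077 CPM in other cells. Lum, which encodes the matrix proteoglycan lumican, had 62.6 and 1364 CPM (4.44, 4.38 to 4.51) and 483 and 3715 CPM in other cells. Vcam1, an adhesion molecule, had 108 and 920 CPM (3.09, 3.04 to 3.15). Col2a1, cartilage collagen, had 19 UMIs or 0.680 CPM and 10996 UMIs or 336 CPM, a log2 ratio of 8.91 (8.30 to 9.68), with 1.49 and 2725 CPM in other cells.

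The share of smooth muscle cells with these markers was set beside that in endothelial cells, which should lack most of them. After thinning, 3 or more UMIs of the 5 modulated wall markers were in 3.77% (3.18 to 4.44) of smooth muscle cells on normal diet and in 44.0% (42.6 to 45.3) on western diet. In endothelial cells with 5 or more UMIs of other endothelial markers and in no other class, the shares were 18.2% (12.2 to 25.8) of 137 cells and 42.9% (21.8 to 66.0) of 21 cells, although Vcam1 is also an endothelial gene. Before thinning the median smooth muscle cell held 7411 and 5812 UMIs and the median cell of this endothelial set 4141 and 5380. On western diet the shares were thus close, and the smooth muscle value lay within the wide interval of the 21 endothelial cells, while on normal diet it was the lower. What part free RNA had in it was not tested. One-class smooth muscle cells gave log2 ratios of 5.67 for Lum and 7.85 for Spp1. The modulation list of the LysM-DKO pair had a median of -0.05, with log2 ratios of 0.15 for Lum, -0.06 for Vcam1 and 1.998 for Spp1.

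Genes ranked high in smooth muscle cells, by a rule that required them to be at least as high there as in other cells, were of other kinds. Igfbp2, a binding protein of insulin-like growth factors, had 895 UMIs or 32.0 CPM and 4307 UMIs or 131 CPM, a log2 ratio of 2.04 (1.93 to 2.14), with 11.1 and 18.3 CPM in other cells. It was thus several-fold above the other cells of the western diet library. The adhesion gene Cdh11, the matricellular gene Ccn5, the histone gene Hist1h1e, the synuclein gene Sncg and the GABA receptor gene Gabbr1 followed with log2 ratios of 2.003, 1.92, 1.75, 1.65 and 1.52. On western diet their levels were 87.0, 149.8, 81.8, 258.5 and 93.2 CPM in smooth muscle cells and 79.4, 137, 67.0, 207 and 42.8 CPM in other cells. Cdh11, Ccn5, Hist1h1e and Sncg thus stood only slightly above the other cells. The LysM-DKO pair gave log2 ratios of 1.68 for Hist1h1e and 1.03 for Ccn5. For Cdh11, Gabbr1, Igfbp2 and Sncg they were 0.52, 0.28, 0.04 and -0.15.

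**Figure D3:**
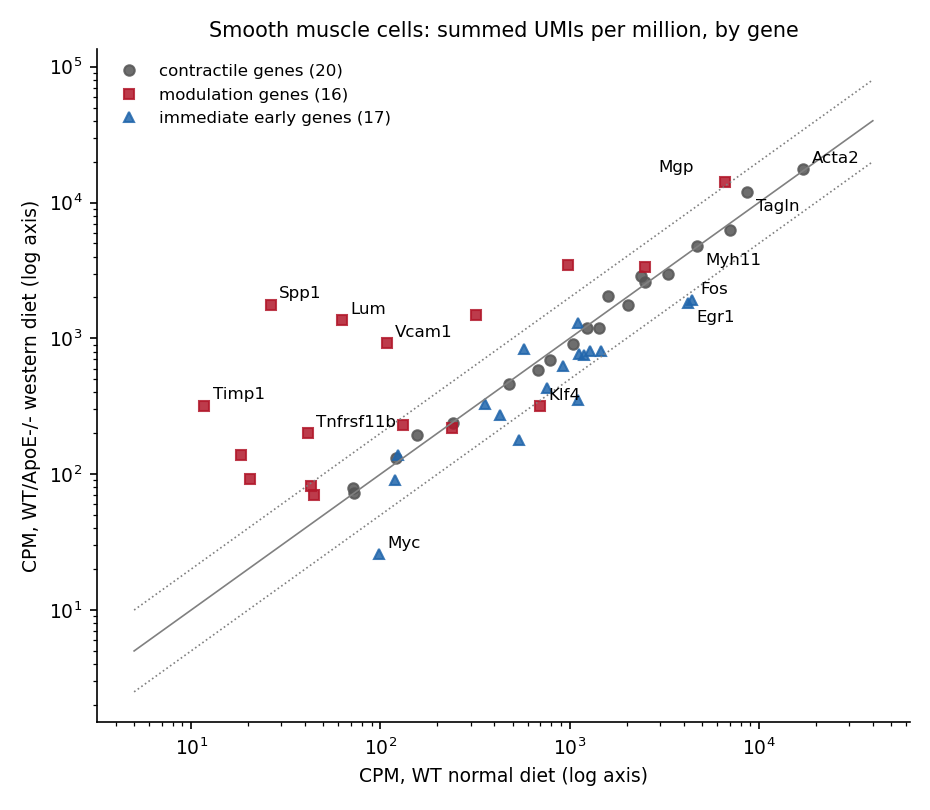
CPM in smooth muscle cells on normal diet (x, log axis) and western diet (y, log axis) of the WT pair, 1 point per tested gene, with the solid line at equal levels and dotted lines at 2-fold. The 20 contractile genes lie within 2-fold, 10 of 16 modulation genes lie above the upper dotted line and 5 of 17 immediate early genes below the lower one.

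Immediate early genes, induced within minutes by growth factors or by handling and many of them encoding transcription factors, were lower in smooth muscle cells. Of 17 tested 5 were 2-fold or more lower and none higher, with a median of -0.67. Fos had 4437 and 1914 CPM and Atf3 1111 and 354 CPM (-1.65, -1.68 to -1.62). Myc had 98.2 and 25.9 CPM and Nr4a1, an orphan nuclear receptor gene, 542 and 179 CPM (-1.60, -1.64 to -1.56). Btg2 was highest of the list at 573 and 835 CPM. Of 13 unfolded protein and oxidative stress genes 4 were lower and none higher, with a median of -0.11, and Hmox1 was lowest at 193 and 27.0 CPM (-2.84, -2.94 to -2.73). Klf4, a transcription factor and the lower member of the modulation list, had 696 and 316 CPM, below the 735 and 513 CPM of other cells. Csrnp1, Ppp1r10, Sertad1 and Ifrd1, also stimulus-induced genes, had log2 ratios of -1.69, -1.66, -1.43 and -1.38. Kcnab1, a potassium channel subunit gene, had 145 and 47.9 CPM. In the other classes the same list had medians of -0.72 in macrophages, -0.77 in fibroblasts and -0.61 in endothelial cells, and in the LysM-DKO pair -0.32 in smooth muscle cells. The classes come from the same libraries, so these are not separate observations.

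Fibroblasts on western diet held more collagen, cartilage and acute-phase transcripts and fewer chemokine transcripts. Among 3247 genes tested, 5.54% were 2-fold or more higher and 7.58% lower, with a median of 0.05. Of 20 tested collagen and elastic fibre genes 10 were higher and 1 lower, with a median of 0.98. Col1a1, the main chain of collagen I, had 1568 and 8164 CPM (2.38, 2.34 to 2.42), with 499 and 1904 CPM in other cells. Col8a1, a short-chain collagen, was highest of the list at 28.3 and 220 CPM (2.95, 2.64 to 3.29). Fbln1, fibulin 1, was the lower member at 844 and 258 CPM (-1.71, -1.81 to -1.61). In the LysM-DKO pair the list median was 0.25 and the log2 ratio of Col1a1 was 0.65.

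Activated fibroblast genes were higher as well, 9 of 13 with 1 lower and a median of 1.34. Of these 9 genes 6 were also at least as high in fibroblasts as in the other cells of the western diet library. Fn1, fibronectin, had 491 and 6735 CPM (3.78, 3.71 to 3.85), with 830 and 3710 CPM in other cells. Spp1 had 187 and 14096 CPM (6.23, 6.12 to 6.35), and Tgfbi was the lower member at 500 and 218 CPM. Timp1, an inhibitor of metalloproteinases, had 77.4 and 962 CPM (3.63, 3.45 to 3.83). By contrast, 4 of 10 adventitial stem-like genes were lower and none higher, with a median of -0.81, though it was -0.04 in one-class cells with adventitial markers and 0.04 in those without. Clec3b and Pi16, both among the lower genes of this list, helped to make that split, so the medians within it depend on the selection. Has1, a hyaluronan synthase gene, had 276 and 36.0 CPM, and Pi16 349 and 136 CPM (-1.36, -1.50 to -1.21).

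Chemokine and cytokine genes were mostly lower in the class as a whole. Of 11 tested 6 were lower and 1 higher, with a median of -1.97, but the median was 0.82 in one-class cells with adventitial markers and 0.16 when cells were thinned to 2000 UMIs before the rule. Cxcl2 had 925 and 105 CPM (-3.13, -3.27 to -2.99), but other cells held 549 and 576 CPM. Cxcl1, also a neutrophil attractant, had 1324 and 337 CPM (-1.97, -2.06 to -1.89), Ccl7 511 and 61.3 CPM, and Il6 295 and 34.9 CPM (-3.07, -3.33 to -2.83). The member past 2-fold higher was Lif, leukaemia inhibitory factor, at 32.5 and 83.8 CPM (1.36, 1.05 to 1.70), and Cxcl12, a chemokine that retains cells in tissues, had 547 and 942 CPM. Igfbp3, a binding protein of insulin-like growth factors, had 530 UMIs or 169 CPM and 39 UMIs or 8.36 CPM, a log2 ratio of -4.32 (-4.84 to -3.87). Ptx3, a pentraxin of innate defence, and the transcription factor gene Pou2f2 had log2 ratios of -3.29 and -3.73. The LysM-DKO pair gave -3.86, -3.41 and -4.06 for Igfbp3, Ptx3 and Pou2f2.

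Of 12 complement and acute-phase genes 4 were higher and none lower, with a median of 0.48. Saa3, serum amyloid A3 (chr7:46711998-46715700, minus strand, GRCm38), had 3 UMIs or 0.955 CPM and 953 UMIs or 204 CPM, a log2 ratio of 7.52 (6.19 to 10.02). Lcn2, an iron-sequestering lipocalin, had 2.87 and 317 CPM (6.71, 5.86 to 7.92), and Hp, haptoglobin, 3.18 and 251 CPM (6.23, 5.42 to 7.36). In the LysM-DKO pair Saa3 was lower on western diet, at 207 and 22.9 CPM, as was Hp at 94.7 and 30.1 CPM. Lcn2 was close there, at 78.7 and 97.9 CPM. So on normal diet these acute-phase genes were already present in the LysM-DKO library and near 0 in the WT library.

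Cartilage genes and Saa3 differed between subsets of these cells, while the acute-phase genes Hp and Lcn2 had close levels in both. The one-class fibroblasts were divided, after the data were seen, into 377 and 206 cells with 3 or more UMIs of the adventitial markers Clec3b, Dpt and Pi16 and 96 and 160 cells without. Col2a1 had 22.1 CPM on western diet in cells with these markers and 8169 CPM in cells without. Acan, the cartilage proteoglycan aggrecan, had 13.3 and 844 CPM, and Ibsp, a bone sialoprotein, 252 and 4562 CPM, in the same order. Saa3 went the other way, with 405 CPM in cells with adventitial markers and 60.7 CPM in cells without, and the chemokine genes Cxcl13 and Cxcl14 had 126 against 3.84 CPM and 126 against 19.99 CPM. The acute-phase genes Hp, at 293 and 239 CPM, and Lcn2, at 262 and 287 CPM, had close levels in both subsets on western diet. As a list the complement and acute-phase genes did differ between the subsets. With the markers 6 of 12 were 2-fold or more higher on western diet, with a median of 1.10, against 5.84% of all genes tested. Without the markers 3 of 11 were higher and 1 lower, with a median of -0.10, against 8.77% and 12.08% of all. In the cells with adventitial markers Pi16 had 438 and 446 CPM on the diets, although it helped to choose them, and Gsn, the actin-severing protein gelsolin, had 16057 and 4360 CPM.

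**Figure D4:**
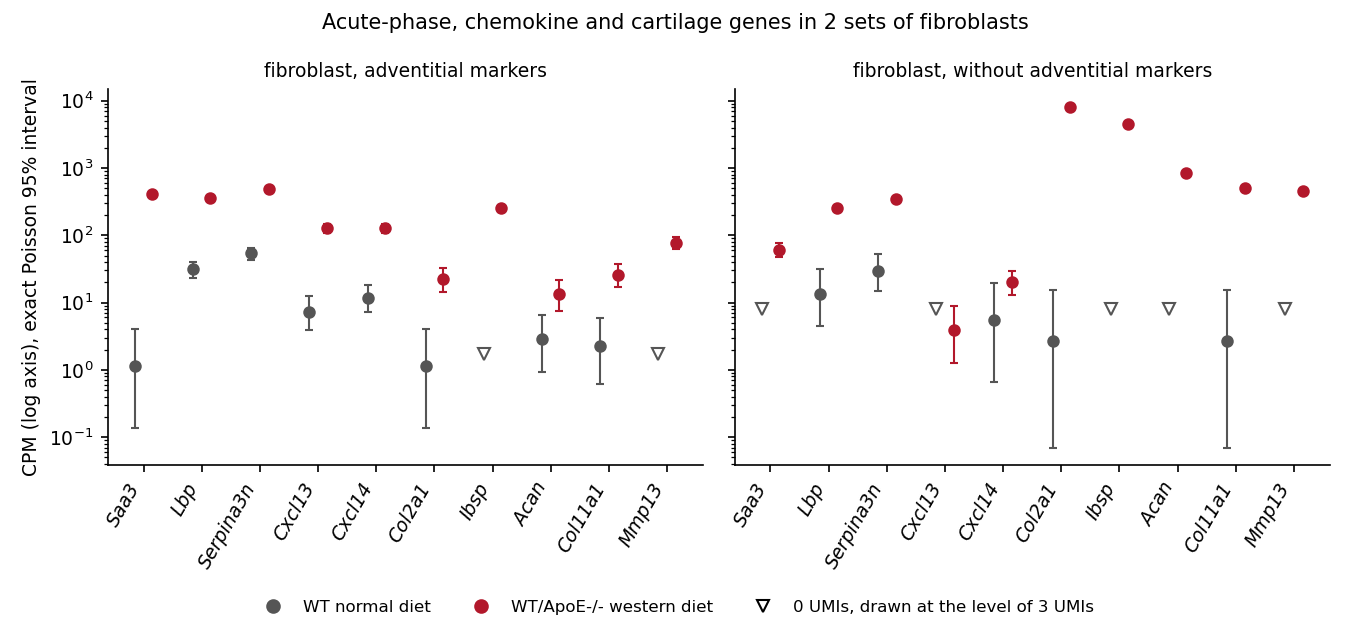
CPM (log axis, exact Poisson 95% intervals, 1 library per point) of acute-phase, chemokine and cartilage genes in one-class fibroblasts of the WT pair with and without adventitial markers, open triangles for 0 UMIs at the level of 3 UMIs. On western diet Saa3 was 405 CPM with and 60.7 CPM without the markers, while Col2a1 was 22.1 and 8169 CPM.

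All fibroblasts together went from 0.955 to 2944 CPM of Col2a1, 3 to 13733 UMIs, a log2 ratio of 11.37 (10.04 to 13.87), against 0.901 and 724 CPM in other cells. Ibsp went from 0.637 to 1801 CPM and Acan from 5.09 to 318 CPM. Mmp13, a collagenase, had 0 and 1354 UMIs, a log2 ratio of at least 8.25. The LysM-DKO pair showed log2 ratios of 7.20, 5.03 and 5.23 for Col2a1, Ibsp and Acan, and 0.25 for Mmp13. The summed level of 5 chondrocyte markers in the class was 604 CPM on normal and 4334 CPM on western diet, and that of 5 modulated wall markers 2372 and 21784 CPM. Cells with the fibroblast rule's Serpinf1 but no UMI of Pdgfra were 28.7% on normal and 16.2% on western diet. Whether these cells are fibroblasts or modulated smooth muscle cells was not tested.

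In cells of the endothelial rule the genes of capillaries and lipid uptake were lower on western diet, but fewer of these cells held other endothelial markers. On normal diet 28.0% and on western diet 10.3% of them held 5 or more UMIs of 8 such markers. Whether the capillary genes fell beyond endothelial RNA as a whole was not tested. Among 3368 genes tested, 4.69% were 2-fold or more higher and 4.48% lower, with a median of 0.00. Of 8 tested capillary and lipid handling genes 5 were lower and none higher, with a median of -1.33. Fabp4, a fatty acid chaperone, had 9557 UMIs or 1745 CPM and 1984 UMIs or 551 CPM (-1.66, -1.73 to -1.59). Gpihbp1, which anchors lipoprotein lipase to capillary walls, had 470 UMIs or 85.8 CPM and 53 UMIs or 14.7 CPM (-2.53, -2.98 to -2.13), with 1.51 and 0.123 CPM in other cells. Of 11 VEGF and junction genes 3 were lower and none higher, with a median of -0.85, but 1 of the 3 was Cdh5, which helped to choose the cells, beside Cldn5 and Kdr. Kdr, the main VEGF receptor, had 85.6 and 20.3 CPM. Nts, the neuropeptide neurotensin, had 126 and 13.9 CPM (-3.17, -3.63 to -2.77). In the LysM-DKO pair the log2 ratios of Fabp4, Gpihbp1, Kdr and Nts were -2.16, -2.17, -3.11 and -4.79, and in its one-class cells -0.95, -0.77, -1.52 and -2.68.

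Because most cells of the endothelial rule met another rule, narrower selections were compared. The one-class endothelial cells were 207 and 79, and among 3413 genes tested there 9.08% were 2-fold or more higher and 9.14% lower. Of 9 capillary and lipid handling genes 8 were lower, with a median of -2.17, and of 11 VEGF and junction genes 6, with a median of -1.13. A further selection, added after the data were seen, asked also for 5 or more UMIs of 8 other endothelial markers and left 137 and 21 cells. There the capillary list kept a negative median of -1.21, while the VEGF and junction list had 0.08. Fabp4 had 8452 and 3203 CPM, Gpihbp1 456 and 194 CPM and Kdr 460 and 206 CPM. Cdh5, vascular cadherin, had 786 and 705 CPM, close to level, and Pecam1 1732 and 2597 CPM, though both chose the cells. Kdr, Cldn5 and Esam of the VEGF and junction list are among the 8 markers, so its median there depends on the selection. That median was near 0 although Kdr was lower, and the western diet library held 21 of these cells.

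Inflammatory and flow genes of that small set were read from few UMIs. Sele, E-selectin, had 98 and 2 UMIs, 141 and 11.8 CPM, and Icam1 734 and 294 CPM, but the median of the leukocyte adhesion list was -0.06 and its highest member stood at 0.96. Nos3, nitric oxide synthase, had 166 and 13 UMIs, 240 and 76.4 CPM (named after its values were seen). Klf2, the transcription factor of laminar flow, was level at 1327 and 1440 CPM. Glycam1, a sulphated mucin of lymph node venules, had 28 and 180 UMIs, 40.4 and 1058 CPM, with 1.21 and 35.1 CPM in other cells. All cells of the endothelial rule in the LysM-DKO pair held 2 Glycam1 UMIs on normal and 0 on western diet.

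Genes ranked high in the endothelial rule included wall and fibroblast genes. Lum had 138 and 3325 CPM and Spp1 211 and 5795 CPM, against 1856 and 4900 CPM in other cells on western diet. Mmp13, Saa3, Hp, Serpina3n and Prg4 had log2 ratios of 9.05, 7.20, 6.94, 6.43 and 5.70. In the marker-supported cells Mmp13, Saa3 and Hp were at 0, 1 and 0 UMIs on western diet, out of 170167. Prg4, a lubricating proteoglycan, had 1930 CPM in one-class cells on western diet against 120 CPM in other cells, and 23.5 CPM in the marker-supported cells. Serpina3n, a protease inhibitor, had 299 and 117 CPM in the same 2 sets. The ratio of Mmp13 was 2.76 in one-class cells and -0.19 when cells were thinned to 2000 UMIs before the rule. The summed level of 8 fibroblast markers in the class was 2967 and 10614 CPM, and that of 8 endothelial markers 639 and 235 CPM. Of 12 mesenchymal transition genes 5 were higher and 1 lower, with a median of 0.58, and Fn1 had 825 and 5366 CPM against 798 and 3910 CPM in other cells. What part fibroblast and wall cell RNA had in these values was not tested.

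**Figure D5:**
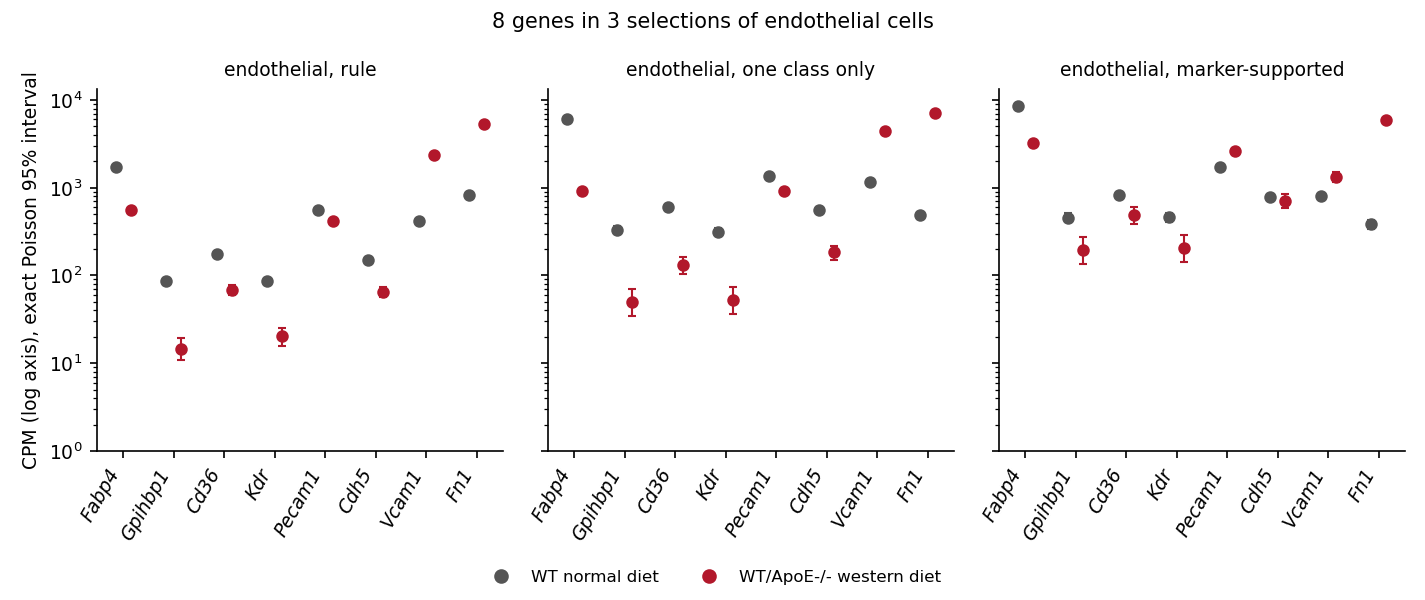
CPM (log axis, exact Poisson 95% intervals, 1 library per point) of 8 genes in 3 selections of endothelial cells of the WT pair. Fabp4, Gpihbp1, Cd36 and Kdr were lower on western diet in all 3, while Cdh5 was close to level, 786 and 705 CPM, in the marker-supported cells. Pecam1 and Cdh5 chose the cells in all 3, and Kdr helped to choose the marker-supported cells.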

How the data were processed

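The deposited matrices hold whole-number UMI counts per gene and barcode, which the authors made with Cell Ranger, 6.0.1 for normal and 6.1.2 for western diet libraries per the file headers. The submitters' processing notes list Cell Ranger 6.1.2, Seurat 4.1.0 and mm10, and the parameters are not given in the sources used here. From these counts, cells were kept, classed by marker UMIs, summed per class and scaled to CPM with scanpy 1.11.5, numpy 2.4.6, scipy 1.17.1 and pandas 2.3.3. The summed UMIs of a class ran from 461319 (macrophages, normal diet) to 32763047 (smooth muscle, western diet), where the floor of 3 UMIs used for genes at 0 stands at 6.50 and 0.0916 CPM. The ratio and its interval were checked on simulated data. Shares were compared by Newcombe intervals. Doublets were scored with scrublet and kept, with their removal as an alternative.

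The 4 classes and the 40 gene lists were chosen with earlier results of these data known. In each class 8 genes higher and 8 lower were ranked by the interval bound nearest 0, among genes of mean CPM of at least 50 with the same direction in one-class cells and, in the higher library, a class level no lower than in other cells. Mitochondrial, ribosomal, hemoglobin, immunoglobulin, sex-linked and predicted genes and the rule's genes were not ranked. Of each list the highest, the lowest and the 2 most abundant members could be named, and others only where said. The remaining named genes outside this rule (Abca1, Lrp1, Ccl7, Il6, Timp1 and those of the narrower cell sets among them) were chosen after their values were seen. Some genes this rule selects are not reported here.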

Additional observations from a re-analysis of the deposited data

Results flagged for a closer look

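In 4 results the WT pair and the LysM-DKO pair, which share no library, differed in direction between diets with counting intervals on opposite sides of 0 and, for genes, at least 2-fold each way. The difference was not tested because each group is 1 library. The share of macrophages was 6.60 points higher on western diet in the WT pair and -1.48 points in the LysM-DKO pair. In fibroblasts the log2 ratio of Saa3 was 7.52 in the WT pair and -3.17 in the LysM-DKO pair, and that of Hp 6.23 and -1.65. In endothelial cells the log2 ratio of Hp was 6.94 and -2.50, although in the WT western library no Hp UMI lay in the marker-supported endothelial cells.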

How the results depend on the processing

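Every share kept its direction under the alternatives except that of fibroblasts. Differences in points, western minus normal diet, were as follows. With cells of at least 1000 UMIs they were 5.65 for macrophages, -7.19 for endothelial cells, -3.53 for fibroblasts and 7.81 for smooth muscle cells, and at 4000 UMIs 3.72 for smooth muscle cells. At 5% mitochondrial UMIs they were 8.60, -4.69 and 11.9 for macrophages, endothelial and smooth muscle cells. With doubled marker thresholds they were 5.25, -3.09, -2.54 and 16.7, and with cells thinned to 2000 UMIs 5.50, -2.85, -3.05 and 17.2, in the same order of classes. One-class cells gave 4.58 for macrophages and -2.18 for endothelial cells, and marker-supported cells -1.88 for the latter. For fibroblasts Pdgfra alone reversed the direction, to 1.83, as did cells without adventitial markers, to 0.713, while those with them gave -3.11.

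Counts past 2-fold, higher and lower, followed the level filter: at 20 CPM 964 and 563 in macrophages, 280 and 260 in endothelial cells and 357 and 397 in fibroblasts, with 131 higher in smooth muscle cells. At 200 CPM they were 86 and 133, 48 and 57, 48 and 111, and 21 and 54. In endothelial cells they were 310 and 312 in one-class, 252 and 248 in thinned and 309 and 250 in marker-supported cells. In fibroblasts without adventitial markers they were 278 and 383, and 163 and 144 were lower with equal weight per cell and with thinned cells. Reversals were counted only for gene ratios and list medians that were 2-fold or more in the main setting. Among these, Mmp13 reversed in thinned endothelial cells, at -0.19. The fibroblast chemokine list did so at 0.16 thinned and 0.82 with adventitial markers. So did the 1-gene interferon list of smooth muscle cells, at -0.25 with equal weight. Under the alternatives set at the start, 2 of 119 such list medians and 1 of 601 such gene ratios changed direction. Smaller list medians also changed sign. In one-class endothelial cells the leukocyte adhesion list went from 0.397 to -1.075 and the arterial and Notch list from 0.293 to -0.595. The adventitial and marker-supported selections were chosen after seeing the data. No paired analysis was possible because each group is 1 library. Depth limits the macrophages on normal diet, at 81 cells, and more so the marker-supported endothelial cells on western diet, at 21 cells and 170167 UMIs.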
